A study of Mus musculus with 8 samples.

Results

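The genes described here are those of the anterior pituitary gland as they were read on arrays of the mouse trigeminal ganglion. They are the hormone genes Gh, Prl, Cga, Lhb, Fshb and Tshb, the receptor genes Ghrhr and Gnrhr, and the transcription factor genes Pou1f1 and Pitx1. A probe set, the group of short probes that gives a gene 1 value, was taken where the platform annotation gave it 1 of these 10 symbols alone. This found 15 probe sets of 9 genes among 45037 tested probe sets and 18193 genes: 4 for Gh, 3 for Gnrhr, 2 for Pitx1 and 1 for each of the others, and none for Pou1f1. The RNA came from trigeminal ganglia and was read on 8 Affymetrix mouse expression arrays, 4 of control mice and 4 of mice transgenic for daDREAM, a mutant of the calcium-binding repressor DREAM designed to stay active. All mice were labelled adult males of the strain C57B/6XCBA with no drug treatment named, and the 4 transgenic titles share the tag tg16. The design names 4 biological replicates per group. The sources used here do not name the promoter that drives the transgene, the exact age, or whether an array holds 1 animal or a pool. P-values therefore measure only the spread between these arrays.

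The anterior pituitary lies in the sella turcica on the floor of the skull, close to the ganglion from which facial sensation is relayed, and it makes each hormone in a cell type of its own. Somatotrophs make growth hormone (Gh) in response to the receptor Ghrhr, lactotrophs make prolactin (Prl), gonadotrophs make luteinising and follicle-stimulating hormone in response to the receptor Gnrhr, and thyrotrophs make thyroid-stimulating hormone. The gonadotroph and thyrotroph hormones share an alpha subunit, encoded by Cga, and take their identity from the beta subunits Lhb, Fshb and Tshb. Pou1f1 is the factor on which somatotrophs, lactotrophs and thyrotrophs depend, and Pitx1 acts in all anterior lobe lineages. Whether cells of the ganglion itself make any of these hormones was not tested. The question asked of the arrays was which of these lineages left a signal in the dissected ganglia and how the signals varied together.

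Sequences upstream of the hormone genes show where the lineage factors could bind, and 3 are printed. Their genes differ in what the arrays showed: Prl and Cga varied over the arrays together, and Lhb ranged far less. Each run is the 250 bases before the annotated start, 5′ to 3′ on the gene's strand, from RefSeq on build GRCm38.p6. Capitals mark a match to TATNCAT, the core that POU1F1 binds, or to AAGGTCA, the half-site of the gonadotroph factor NR5A1, each searched on both strands.
Prl, chr13:27057320-27057569, plus strand: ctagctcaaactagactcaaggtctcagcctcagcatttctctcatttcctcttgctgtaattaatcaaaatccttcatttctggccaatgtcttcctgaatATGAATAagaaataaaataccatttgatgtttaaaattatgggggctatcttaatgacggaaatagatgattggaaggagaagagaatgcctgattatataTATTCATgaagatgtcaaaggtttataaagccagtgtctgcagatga
Cga, chr4:34893529-34893778, plus strand: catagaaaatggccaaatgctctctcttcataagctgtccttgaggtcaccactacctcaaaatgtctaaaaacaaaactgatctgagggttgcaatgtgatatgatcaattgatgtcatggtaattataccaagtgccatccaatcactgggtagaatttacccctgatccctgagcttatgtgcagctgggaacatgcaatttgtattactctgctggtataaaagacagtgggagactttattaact
Lhb, chr7:45420696-45420945, plus strand: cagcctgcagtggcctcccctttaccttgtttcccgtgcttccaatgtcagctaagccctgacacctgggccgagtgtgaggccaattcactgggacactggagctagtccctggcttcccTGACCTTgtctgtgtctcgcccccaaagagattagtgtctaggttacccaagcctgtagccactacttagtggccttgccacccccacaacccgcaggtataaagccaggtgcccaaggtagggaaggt
The Prl sequence held 2 matches to TATNCAT, beginning 148 and 47 bases before the start. The Lhb sequence held 1 match to AAGGTCA, beginning 129 bases before the start, and the Cga sequence held none. Among the 32851 entries of the RefSeq table, 7.92% held a match to TATNCAT in the same 250 bases, 4.08% a match to AAGGTCA, and 6.25% a match to TAATCC, the core bound by PITX factors, which no member's sequence held. The motifs did not overlap one another in these sequences. Entries were found for 7 of the 10 genes: Prl, Cga, Lhb, Fshb, Tshb, Gnrhr and Pou1f1. Of these, 1 of the 2 Pou1f1 entries held a TATNCAT match, and Fshb, Tshb and Gnrhr held none of the 3 motifs.

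The arrays carried their label of tissue. Markers of trigeminal sensory neurons read from a mean of 8.89 to 13.86 on the log2 scale, and none of the 11 measured ranged by more than 0.53 over the 8 arrays. On 3 arrays the data went against the label of male: the X-inactivation transcript Xist read 10.20 on control 3, 11.72 on control 4 and 11.51 on transgenic 4, and 6.10 to 6.49 on the other 5. The Y-linked gene Eif2s3y read 8.40, 7.16 and 4.46 on those 3 arrays and 8.74 to 9.04 on the rest, so that control 3 and control 4 carried both signals. Ribosomal 18S signal was highest on control 1 and control 4 at all 3 of its probe sets. Kcnip3, which encodes DREAM, read 10.23 ± 0.15 in control and 10.26 ± 0.07 in transgenic ganglia (SD, n = 4), a difference of 0.03 whose sign turned under several settings. Its dimmer probe set read 8.89 ± 0.32 and 9.17 ± 0.18 (SD, n = 4), a difference of 0.27 that did not pass limma (adjusted p = 0.346). The sources used here do not say whether either covers the transgene.

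The hormone genes Gh, Prl and Cga varied over the arrays far more than nearly all other genes, and the beta subunits and receptors of gonadotrophs, Lhb, Fshb and Gnrhr, did not. Gh spanned 21.0-fold from the lowest to the highest array, Prl 54.9-fold and Cga 12.3-fold. Tshb spanned 2.14-fold, through transgenic 4 alone. Lhb, Fshb, Ghrhr, Gnrhr and Pitx1 stayed within 0.70 log2 units. In whole tissue, fewer cells of a type and less RNA per cell cannot be told apart.

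Because a probe set without its transcript still gives a value, the range was set beside that of 18 measured genes of tissues that are neither ganglion nor pituitary, such as the sperm protamine Prm2, the pancreatic glucagon gene Gcg and the milk protein Csn2. These read at means from 4.05 to 8.45, so a level alone was not read as presence. Their ranges ran from 0.20 to 0.85 log2 units, with a median of 0.48, and the widest, that of the elastase gene Cela1, belonged to the 1 of the 18 that passed limma between the groups (lower in transgenic ganglia, adjusted p = 0.0044). The median range was 0.42 over all 45037 probe sets, 3.68% of which ranged by at least 1. Of the 15 pituitary probe sets, 7 ranged by at least 1: all 4 of Gh and those of Prl, Cga and Tshb. The other 8 lay at 0.31 to 0.70, inside the range of the foreign genes. Only 0.0155% of all probe sets ranged more widely than Prl, 0.0466% more than the brightest Gh probe set and 0.0711% more than Cga, against 2.50% for Tshb. For Lhb, the widest of the other 8, it was 13.0%.

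**Figure D1:**
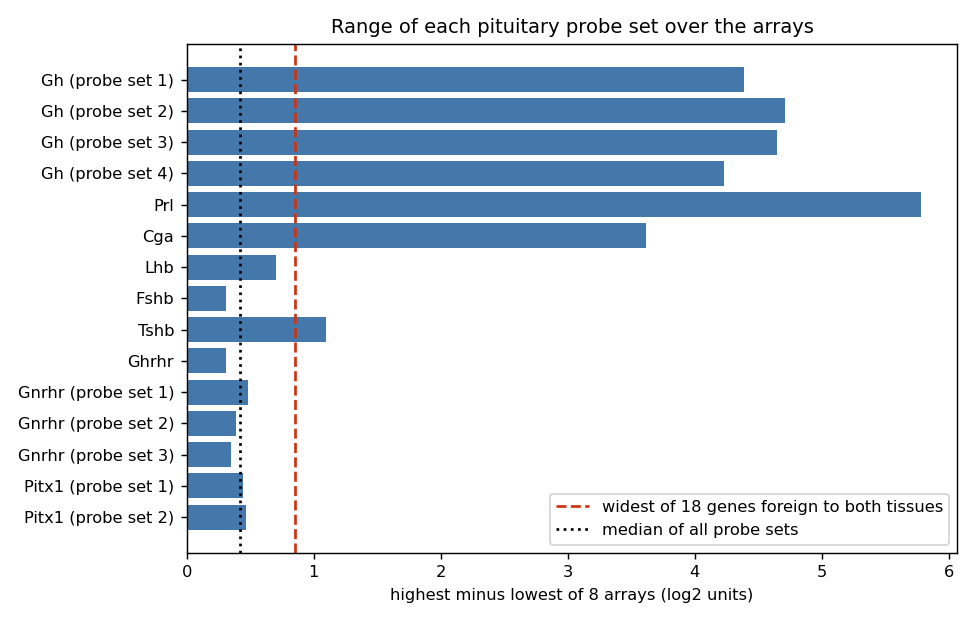
Horizontal bars give the highest minus the lowest of 8 arrays, in log2 units, for each of the 15 pituitary probe sets. The dashed line at 0.85 is the widest of 18 genes foreign to both tissues and the dotted line at 0.42 the median of all probe sets. Bars of Gh, Prl, Cga and Tshb pass the dashed line and the others do not.

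Gh, the product of somatotrophs, ranged more widely within each group than the group means differed. It read 10.31, 9.28, 11.15 and 9.08 on control 1 to 4 and 10.66, 9.04, 12.50 and 13.43 on transgenic 1 to 4. Transgenic 4 and transgenic 3 stood highest and control 3 next, while transgenic 2, control 4 and control 2 were lowest at 9.04 to 9.28, so the groups overlapped. Group means were 9.96 ± 0.96 in control and 11.41 ± 1.95 in transgenic ganglia (SD, n = 4). The difference of 1.45 (SE 0.79, 95% interval -0.27 to 3.18) did not pass limma (adjusted p = 0.350 over all probe sets). It was 0.78 without transgenic 4 and 2.24 without transgenic 2, and 0.29 without control 3, transgenic 3 and transgenic 4, the arrays with the most Gh.

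The 4 Gh probe sets gave nearly the same order of arrays, with control 4 in place of transgenic 2 as the lowest at the 3 dimmer ones. After each was centred on its own mean, they differed from one another on an array by at most 0.315 (transgenic 4) and at least 0.0763 (control 3), against ranges over the arrays of 4.23 to 4.71. Their group differences were 1.42 to 1.60, with limma adjusted p from 0.329 to 0.351. These probe sets share the Gh transcript, and by their suffix 3 of them hold probes that can match other transcripts, so they are repeats of 1 measurement and not replicates. Ghrhr, the receptor through which somatotrophs receive their releasing hormone, read 7.67, 7.43, 7.45 and 7.62 in control and 7.61, 7.45, 7.39 and 7.70 in transgenic ganglia. It ranged by 0.31, less than 74.4% of all probe sets. Ghrhr was highest on transgenic 4 (7.70), where Gh too was highest. It was lowest on transgenic 3 (7.39), an array on which Gh was 11.0-fold above its lowest array.

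Prl, the product of lactotrophs, had the widest range of all members. It read 7.95, 7.27, 11.86 and 8.81 on control 1 to 4 and 7.87, 6.72, 9.42 and 12.50 on transgenic 1 to 4. Transgenic 4 and control 3 stood 54.9-fold and 35.3-fold above transgenic 2, the lowest array, and the next, transgenic 3, stood 6.50-fold above it. Groups overlapped fully, with means of 8.97 ± 2.03 and 9.13 ± 2.51 (SD, n = 4). The difference of 0.16 (SE 1.17, 95% interval -2.40 to 2.71, limma adjusted p = 0.961) leaves a wide range of group effects undetectable with these arrays. It read -0.97 without transgenic 4 and 1.12 without control 3, so a single array decided its sign.

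**Figure D2:**
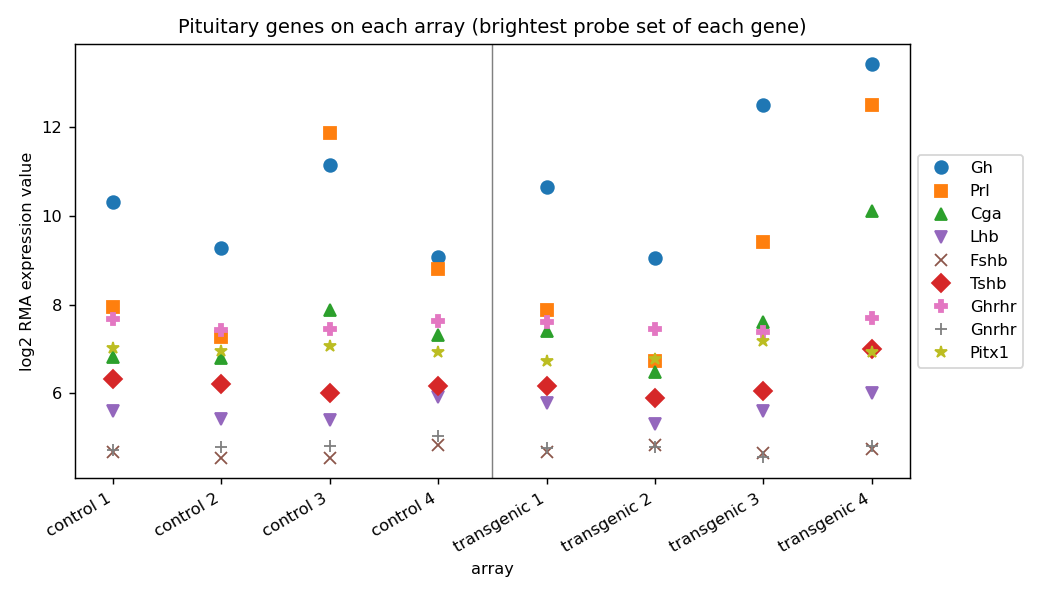
Points give the log2 RMA value of the brightest probe set of each of the 9 measured genes on each of the 8 arrays, control arrays left of the grey line and transgenic arrays right of it. Gh, Prl and Cga move by several units between arrays, with transgenic 4 highest for each at 13.43, 12.50 and 10.11. The receptor, gonadotrophin beta subunit and Pitx1 points stay within 0.70 units, with Lhb the widest.

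Prl and Gh did not rise in a fixed ratio. The Prl value minus the Gh value of the same array, a difference between probe sets of which only the change from array to array can be read, was 0.71 on control 3, -0.27 on control 4 and -0.93 on transgenic 4. On the other 5 arrays it lay between -3.08 (transgenic 3) and -2.01 (control 2), where the lower value means less Prl for a given Gh. The 3 arrays with the higher Prl relative to Gh were the 3 with Xist signal, without overlap with the rest. Control 4 had nearly the lowest Gh (9.08) and yet more Prl (8.81) than control 1 and transgenic 1, whose Gh was higher (10.31 and 10.66). Among the 5 arrays without Xist signal, Prl and Gh kept the same order except that control 1 and transgenic 1 changed places (Prl 7.95 and 7.87). This split was read off the arrays themselves, so it carries no test, and the part of the sex of the animals in it was not tested. Prolactin is known as a hormone made in greater amounts by the pituitary of female rodents.

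**Figure D3:**
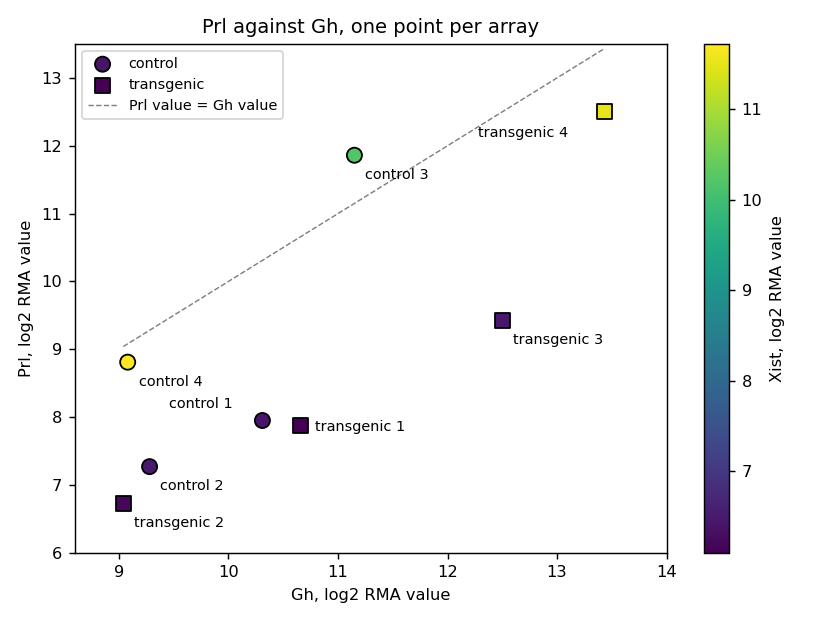
Each point is an array, with the log2 RMA value of Gh on the horizontal and of Prl on the vertical axis, circles for control and squares for transgenic, coloured by the Xist value. The dashed line of equal values is a guide of constant ratio. Control 3, control 4 and transgenic 4, the bright points with Xist at 10.20 to 11.72, lie near or above it (Prl minus Gh from -0.93 to 0.71), and the 5 dark points lie below (-3.08 to -2.01).

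Cga, the alpha subunit of the glycoprotein hormones, was set apart by transgenic 4. It read 6.81, 6.80, 7.88 and 7.32 on control 1 to 4 and 7.41, 6.49, 7.61 and 10.11 on transgenic 1 to 4. Transgenic 4 stood 12.3-fold above the lowest array and the next, control 3, 2.62-fold. The groups overlapped, with means of 7.20 ± 0.51 and 7.91 ± 1.55 (SD, n = 4) and a difference of 0.70 (SE 0.59, 95% interval -0.59 to 2.00, limma adjusted p = 0.556). Without transgenic 4 the difference was -0.03.

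The beta subunits did not follow Cga beyond that array. Tshb, the thyrotroph subunit, read 6.33, 6.21, 6.00 and 6.17 in control and 6.16, 5.90, 6.05 and 7.0 in transgenic ganglia, so that transgenic 4 was alone above 6.33. Control 3, second highest for Cga and Prl, had the second lowest Tshb. Its group difference was 0.10 (95% interval -0.33 to 0.53, limma adjusted p = 0.820), and -0.14 without transgenic 4. Lhb, the luteinising hormone subunit, read 5.59, 5.42, 5.40 and 5.92 in control and 5.79, 5.31, 5.59 and 6.01 in transgenic ganglia, highest on transgenic 4 and control 4. Fshb, the follicle-stimulating hormone subunit, read between 4.53 and 4.84 on all 8 arrays and was highest, next to control 4, on transgenic 2, the array with the lowest Gh, Prl and Cga. Differences were 0.09 for each of Lhb and Fshb (95% intervals -0.24 to 0.42 and -0.10 to 0.27).

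The gonadotroph receptor and the lineage factor ranged less than Lhb. The 3 probe sets of Gnrhr, the receptor for gonadotrophin-releasing hormone, read from 3.85 to 5.04 and ranged by 0.35 to 0.48. Pitx1 read 6.73 to 7.17 at its brighter and 6.43 to 6.90 at its dimmer probe set, with ranges of 0.44 and 0.47. The 2 differed in the arrays that stood highest, transgenic 3 and control 1, and in the sign of the group difference (-0.09 and 0.10). Whether these probe sets would respond to pituitary RNA was not tested, so a flat value is no sign that gonadotrophs were missing from the dissection.

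None of the 15 pituitary probe sets passed the comparison of transgenic with control ganglia. Over all probe sets 2.74% passed limma at an adjusted p under 0.05, 640 higher and 596 lower. No pituitary probe set reached an unadjusted limma p under 0.05, where 18.5% of all probe sets did, and all 15 had overlapping groups, where 11.0% of all probe sets did not overlap. Differences were above 0 at 10 of the 15, among them all 4 of Gh, which are repeats of 1 measurement. The median difference at the brightest probe set of the 9 genes was 0.09, against -0.01 over all probe sets. Of all probe sets, 392 passed without control 3, transgenic 3 and transgenic 4, the arrays with the most Gh, against 1236 with all arrays. Without the 3 arrays with Xist signal 925 passed, and 0 of the pituitary probe sets in either case. Both fits held fewer arrays than the main one, and the part of this in the lower counts was not tested.

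**Figure D4:**
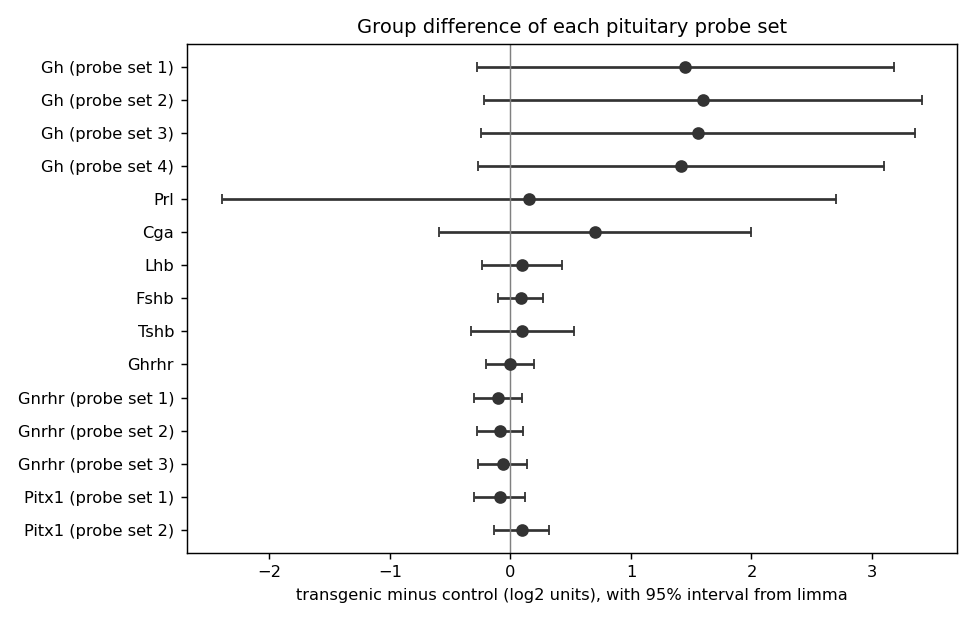
Points give transgenic minus control in log2 units for the 15 pituitary probe sets, with bars for the 95% interval from limma (n = 4 arrays per group). Every interval crosses 0. Those of Gh, Prl and Cga are the widest, with Prl from -2.40 to 2.71. Those of Lhb, Fshb, Ghrhr, Gnrhr and Pitx1 span less than 0.70.

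The covariation of the members was then tested over the 8 arrays, pooling both groups, as 8 relations with Gh at the brightest probe sets. Cga rose and fell with Gh (Pearson r = 0.83, exact permutation p = 0.0042, adjusted over the 8 relations 0.0335; Spearman rho = 0.90, exact p = 0.0046, adjusted 0.0365). Only 0.240% of all probe sets had as high an r with Gh. Without transgenic 4 and transgenic 3, the arrays farthest from the median of Gh, r was 0.70 with an exact permutation p of 0.111 (n = 6). Without transgenic 4 alone r was likewise 0.70 and did not pass (adjusted exact permutation p = 0.333), while without transgenic 3 alone it was 0.93 and passed (0.0421). With control 2, transgenic 1 or transgenic 2 left out, r stayed at 0.80 to 0.84 and the adjusted p rose above the threshold with 7 arrays. Without control 1 and control 4, the arrays with the most 18S, r was 0.88 and the adjusted exact permutation p 0.0556. Prl had r = 0.78 (exact permutation p = 0.0272, adjusted 0.109) and rho = 0.81 (exact p = 0.0218, adjusted 0.0871). It did not pass after adjustment, and r was 0.67 without those 2 arrays (exact p = 0.0972). On deviations from the group means the r of Prl was 0.86 and passed (permutation, adjusted p = 0.0228), and that of Cga was 0.82. That permutation moved deviations freely between groups that had each been centred on their own mean, so its p is not exact.

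Other members showed no relation with Gh that passed. Tshb had r = 0.60 and rho = 0.29, and r fell to 0.08 without the 2 farthest arrays (exact permutation p = 0.106 and 0.501 for r and rho, adjusted 0.283 and 0.668). Values of r were 0.42 for Lhb, 0.42 for Pitx1, 0.18 for Ghrhr, -0.20 for Fshb and -0.44 for Gnrhr, with rho of 0.42, 0.41, 0.11, -0.43 and -0.14. Their exact permutation p, adjusted over the 8 relations, lay between 0.407 and 0.651 for r and between 0.507 and 0.808 for rho. Without the 2 farthest arrays their r was -0.01, 0.28, 0.15, -0.62 and -0.42 in the same order.

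The closest pair was Prl and Cga. Over all 36 pairs of the 9 genes, an addition made after the data were seen, it had r = 0.87 (exact permutation p = 1.984e-04, adjusted over the 36 pairs 0.0071), and no other pair passed by r. Its rho was 0.93 (exact permutation p = 0.0022, adjusted 0.0804). It had r = 0.88 without transgenic 4 and control 3, the arrays farthest from the median of Prl (exact permutation p = 0.025, n = 6), and r = 0.88 without transgenic 4 alone. All members share an array's RNA and its normalization, so r describes how 2 signals went together over 8 dissections and not within cells.

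Genes other than the members whose pattern was most like that of Gh, Prl or Cga were ranked by r over the 8 arrays. The ranking was among 606 genes with a range of at least 1, other genes of the pituitary lists included. They were chosen for their r, which is therefore a description. For Gh the first 8 were Nkd1 (r = 0.87), the myelin glycoprotein Mog (0.85), the tight junction protein Cldn11 (0.85), Marcksl1 (0.83), the apelin receptor Aplnr (0.81), the tetraspanin Tspan2 (0.81), the hedgehog-binding protein Hhip (0.80) and the oligodendrocyte protein Opalin (0.79). Mog read 8.40, 8.29, 9.32 and 8.64 in control and 8.78, 8.98, 9.62 and 9.95 in transgenic ganglia. As with Gh, transgenic 4, transgenic 3 and control 3 stood highest, but Mog ranged by 1.66 against 4.39 for Gh. Without transgenic 4, the r of these 8 genes with Gh ran from 0.61 (Aplnr) to 0.75 (Nkd1).

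For Prl the first 8 were Cldn11 (r = 0.91), the basement membrane collagens Col4a1 (0.90) and Col4a2 (0.85), the fatty acid hydroxylase Fa2h (0.89), the galactosylceramide synthase Ugt8a (0.84), the guidance molecule Sema5a (0.83), the collagen-crosslinking enzyme Lox (0.83) and the translation repressor Eif4ebp2 (0.82). For Cga they were the fibrillar collagen Col1a1 (0.95), Col4a2 (0.95), Col4a1 (0.94), the sulfatide-forming enzyme Gal3st1 (0.93), the myelin protein Pmp2 (0.93), the cyclophilin Ppic (0.88), Nkd1 (0.88) and Marcksl1 (0.87). Col1a1 read 8.71, 9.27, 9.78 and 9.89 in control and 9.42, 8.98, 9.49 and 11.27 in transgenic ganglia, and Pmp2 7.32, 7.06, 8.44 and 8.78 in control and 7.96, 7.68, 8.35 and 10.44 in transgenic ganglia. Both stood highest on transgenic 4, as Cga did, and without it r with Cga was 0.77 for Col1a1, 0.74 for Pmp2 and 0.43 for Ppic. None of the 19 genes named by these ranks passed limma between the groups (adjusted p from 0.0624 for Hhip to 0.957 for Fa2h).

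**Figure D5:**
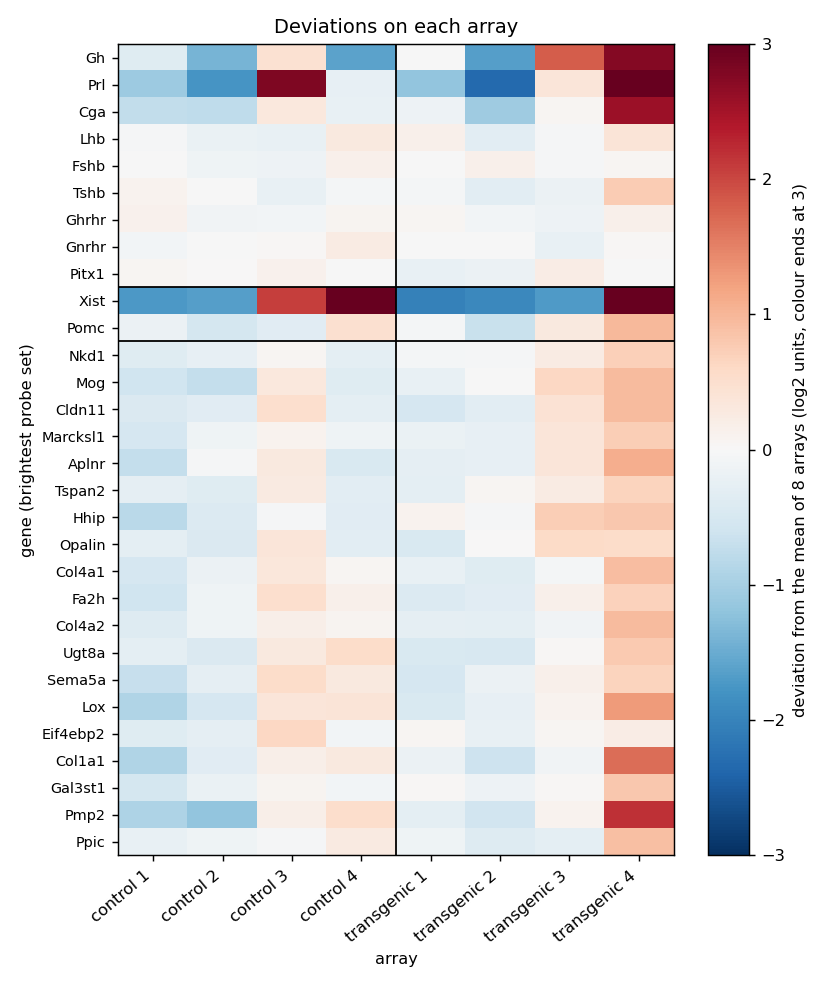
Rows are genes and columns the 8 arrays, and colour gives the deviation from the gene's own mean in log2 units, ending at 3 on either side. The 9 pituitary genes stand above the first black line, Xist and Pomc between the lines, and the 19 genes most like Gh, Prl or Cga below. Transgenic 4 is red for nearly all rows of the lowest block, and control 3 is red for Prl but pale for Gh (11.15 against a mean of 10.68).

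Other genes of the pituitary lineages were read from lists of hormones, receptors, lineage factors, posterior lobe peptides, folliculostellate cell genes and secretory granule genes. Of 60 such genes 55 were measured, and 1 passed limma between the groups, where 2.23% of all genes passed at their brightest probe set. This was Scg5, the chaperone of prohormone convertase 2 in secretory granules. It read 11.67, 11.70, 11.81 and 11.85 in control and 10.75, 10.81, 10.84 and 10.56 in transgenic ganglia, without overlap, and fell by 1.02 (SE 0.08, limma adjusted p = 2.775e-05). The other granule genes, Chga, Chgb, Scg2, Scg3, Vgf and Cpe, did not pass. Chga, the chromogranin of dense-core granules, came nearest: it read 9.94 to 10.49 in control and 10.55 to 10.74 in transgenic ganglia, without overlap, a difference of 0.44 (SE 0.12, limma adjusted p = 0.0757). It passed without control 3 (0.54, adjusted p = 0.0228), and Dio2, the deiodinase that activates thyroid hormone, passed without transgenic 1 (0.59, limma adjusted p = 0.0268), so the count was 2 in either case. Scg5 was lowest on transgenic 4, the array with the most Gh. The median difference over the 55 genes was -0.02.

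Of the 55, 5 ranged by at least 1: Pomc, Neurod1, Otx2, Scg5 and Sox2. Pomc, the precursor of corticotroph and melanotroph hormones, read 8.04, 7.68, 7.87 and 8.68 in control and 8.16, 7.54, 8.51 and 9.19 in transgenic ganglia. Transgenic 4 was highest and transgenic 2 lowest, as for Gh, Prl and Cga, but control 4 was second and control 3, with abundant Prl, was below both group means. Its other probe set was likewise highest on transgenic 4 (7.07) and lowest on control 3 (5.64). Neurod1, a factor of corticotrophs and also of cerebellar granule cells, was highest on transgenic 1 (9.37) and transgenic 3 (8.65), and so was the cerebellar GABA receptor subunit Gabra6 (9.96 and 9.14). Otx2 was highest on the same arrays (6.18 and 5.47), a pair without Xist signal. Sox2, a factor of pituitary stem cells and of glia, read 8.52 to 9.23 in control and 9.31 to 9.59 in transgenic ganglia, without overlap (limma adjusted p = 0.174). Of the 7 somatotroph genes, 1 ranged by at least 1, Gh itself. Dlk1, a gene expressed in somatotrophs, ranged by 0.83 and was highest on transgenic 4, transgenic 3 and control 3 (7.63, 7.58 and 7.38), the arrays with the most Gh. The other 5 ranged by 0.31 to 0.48 and had other orders. The ghrelin receptor Ghsr and the somatostatin receptor Sstr2 were lowest on control 3 (5.11 and 6.97). Both were second highest on transgenic 4 (5.38 and 7.39). Sstr5 was lowest on transgenic 4 (6.32), whereas Ghrhr was highest there (7.70), and Gpr101 was highest on transgenic 3 (4.22). None of the 8 measured posterior lobe and hypothalamic genes ranged by over 0.95.

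Markers of other tissues around the ganglion differed in where transgenic 4 stood. Summed over the 10 skeletal muscle genes, log2 values were 67.85 to 86.81 on control and 67.88 to 68.54 on transgenic arrays, highest on control 1 and control 3. Summed over 8 central nervous system genes they were 67.54 to 74.48 on control and 75.88 to 82.04 on transgenic arrays. Transgenic 4, first for Gh, Prl and Cga, was the lowest of its group at 75.88, close to transgenic 2 at 76.07. Within that list the cerebellar gene Gabra6 read 7.55 on transgenic 4 against 9.96 on transgenic 1, whereas the astrocyte water channel Aqp4 read 11.52 there, second to transgenic 3 (11.56). Summed over the 5 measured Schwann and satellite glia genes, values were 65.24 to 66.11 on control and 65.63 to 66.41 on transgenic arrays, highest on transgenic 4. Outside these lists, the myelin gene Mog (9.95) and the collagen Col1a1 (11.27) were highest on transgenic 4. The oligodendrocyte gene Opalin read 8.78 there, second to transgenic 3 (8.81). Mog, Opalin and Col1a1 had been chosen for their high r with Gh or Cga, which were themselves highest on transgenic 4. Their high values there are therefore no separate observation. Against 2.23% of all genes, 0 of 10 muscle, 0 of 5 glial and 1 of 8 central nervous system genes passed limma between the groups. The last was Aqp4, which rose by 0.755 (SE 0.14, limma adjusted p = 0.0133). The part of these tissues in the pituitary values was not tested.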

How the data were processed

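RNA of trigeminal ganglia from control and daDREAM transgenic mice was read on 8 arrays, 4 per group. The deposited values are on the log2 scale, 1 per probe set. The authors used RMA and affy, per the submitters' processing notes, with no version named. RMA gives arrays a common distribution, so differences are relative to other probe sets, and it can understate folds. Values run from 3.39 to 14.94 with array medians of 7.09 to 7.13. Of 45101 probe sets, 64 Affymetrix controls were left out. Annotation gave 34945 probe sets 1 symbol, 932 several and 9160 none. A gene's brightest probe set is its single-symbol one with the highest mean.

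Groups were compared with limma 3.58.1 in R 4.3.3 (two-sided, group as the only term, Benjamini-Hochberg over all probe sets, threshold 0.05), tested on simulated data. Correlations used exact two-sided permutation of all 40320 pairings of 8 arrays. Figures were drawn with matplotlib 3.10.9. The number of arrays limits the precision. Named genes are all members, Kcnip3, the 8 genes most like each of Gh, Prl and Cga, and, of each pituitary list, members that passed and otherwise up to 4 by range. Names outside it (such as Ghsr, Gabra6, Aqp4, Prm2, Gcg, Csn2, Cela1 and the sex-linked genes) were picked with their values in view. Alternatives were a replicate block, other normalizations, filters, priors and weights, and left-out arrays. The members and lists were chosen with earlier results of these data known. Leaving out arrays by Xist, 18S or Gh, and testing all 36 pairs, were added after seeing the data.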

Additional observations from a re-analysis of the deposited data

Results flagged for a closer look

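Among 74 groups of 4 arrays checked, 4 held an array that stood apart from the other 3 by more of the group's range than Dixon's 95% critical value allows, where chance gives about 1 in 20. No pituitary gene was among them. Control 3 stood above the other control arrays for Cldn11 (10.63), Opalin (8.59) and Tspan2 (10.84), and transgenic 4 above the other transgenic arrays for Col4a2 (10.17). These 4 genes had been chosen for their high r with Gh, Prl or Cga, so the rate that chance gives does not apply to them.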

How the results depend on the processing

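No pituitary probe set passed under any alternative run. At the brightest probe sets of the 9 genes, the 159 values had a smallest limma adjusted p of 0.137. Against 1236 probe sets that passed in all, 2017 passed with the replicate block and 364 with the brightest probe set per gene alone (fewer features tested). With single arrays left out 755 to 1271 passed (fewest without transgenic 2, and 783 without transgenic 3). On fewer arrays still, 760 passed without those with the most 18S and 392 without those with the most Gh. Pathway genes past the test were 2 with the replicate block (Scg5 and Chga, the latter at 0.44 with adjusted p = 0.0233) and 1 to 2 with single arrays left out (2 without control 3 or transgenic 1), against 1, and Scg5 passed in each. Same-numbered arrays correlated at 0.251, 0.015, 0.298 and 0.336 in their deviations, and 3 of the 4 controls correlated best with their own number, a hint from the data and not the design. Relations with Gh that passed were 0 to 2 with single arrays left out and 0 without the most 18S, against 1. On group deviations 2 passed (Prl and Cga), by a p that is not exact. None was computed without the 3 arrays with Xist signal, which leaves 5. Cga did not pass without control 2 (r = 0.82), transgenic 1 (0.84), transgenic 2 (0.80) or transgenic 4 (0.70), against 0.83 with all arrays. Prl passed without control 3 (0.85) or transgenic 3 (0.84), against 0.78.

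Signs of small differences turned. With single arrays left out the differences ran from -0.97 to 1.12 for Prl, -0.0325 to 1.17 for Cga, -0.0192 to 0.21 for Lhb, -0.14 to 0.23 for Tshb, -0.0592 to 0.0442 for Ghrhr and -0.0133 to 0.0933 for Kcnip3, and r with Gh from -0.46 to 0.0275 for Fshb, -0.10 to 0.80 for Tshb and -0.30 to 0.52 for Ghrhr. Without the most 18S, Prl read -0.44, Ghrhr 0.10, Kcnip3 -0.085 and the r of Fshb 0.004. Without the most Gh, Prl read -0.715, Cga -0.0267, Lhb -0.0933, Tshb -0.21 and Pomc -0.28. Tshb read -0.23 without Xist arrays, Ghrhr 0.005 on median centring and 0.0197 with array weights, and Kcnip3 -0.0373 after renewed quantile normalization and -0.0216 with array weights. The cause was not tested. Array number and probe response limit what the flat probe sets can show.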
